A study of Drosophila melanogaster with 6 samples.

Results

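Ribosome biogenesis genes and genes of the RNA exosome were followed in whole Drosophila melanogaster embryos mutant for ribbon (rib), which encodes a nuclear BTB-domain protein, and in wild-type embryos. The members are 39 genes on a list named for these functions. A gene counted as measured where at least 1 probe set of the array is annotated with its symbol alone, and its brightest probe set by the mean over all arrays stood for it. That gave 34 of the 39 members, among 11982 genes named in this way. Of the other 5, hoip is read only by a probe set shared with pins, and nop5, Polr1D, Nmd3 and peno were not analysed here.

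Ribosomes are built in the nucleolus. RNA polymerase I makes a long ribosomal RNA precursor, small nucleolar ribonucleoproteins (snoRNPs) guide its chemical modification and cleavage, and a chain of assembly factors turns it into the small and the large subunit. The RNA exosome is a complex of a barrel-shaped core, a cap and attached nucleases that trims ribosomal RNA from its 3' end and degrades other RNAs. In fly embryos and larvae, growing and dividing cells such as neuroblasts are known for their large nucleoli. The roles given below are those of the yeast or human counterparts unless a fly role is named.

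The tested embryos had the genotype rib1/ribP7, and the controls were Oregon R wild type per the design text. Each group had 3 arrays, 1 for each independent collection. Eggs of either genotype were laid over 8 h and aged for 11 h, which the labels give as stages 11 to 16, and the embryos then passed through an embryo sorter. The labels state neither what the 2 alleles do to the rib product nor the strain background of the mutants, so effects of rib and of background cannot be told apart. Total RNA (100 ng) was labelled with biotin and read on Affymetrix Drosophila Genome 2.0 arrays. Values are log2 units after RMA, which makes the distribution of values alike on all arrays, and array medians lay between 5.51 and 5.56. Whole embryos were used, so fewer cells of a type and less RNA per cell cannot be told apart. The rib transcript, at 13.87, 13.93 and 13.78 in rib1/ribP7 embryos against 13.21, 13.28 and 12.69 in wild-type embryos, was not low in the mutants and gives no check of the genotypes (difference 0.80, SE 0.17, limma adjusted p = 0.0390, and up to 0.155 without wild-type replicate 2 or any 1 mutant array), as the position of its probes and of the lesions is not stated. The p-values below rest on the spread between collections of embryos within a group. Where the replicate number is taken as a block, they rest on the spread of the differences between arrays of the same number.

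Most members, 29 of 34 (85.3%), had a lower mean in rib1/ribP7 embryos by modest amounts, against 64.1% of all tested probe sets. When arrays were scaled on their hybridization controls, 16 of 34 members had a lower mean. By limma's test, adjusted over all 18769 tested probe sets at a threshold of 0.05, 9 of the 34 measured members fell (26.5%), among them the snoRNP genes Nop60B and Fib, the assembly factor genes wcd, Non1 and Surf6, and the exosome genes Rrp4, Rrp40, Dis3 and Mtr4. Over all tested probe sets 3.32% fell in that test, and 5.46% of those at least as bright as the dimmest member. None of the 34 rose in the limma test, against 5.54% of all probe sets and 6.95% of the bright ones, while Nopp140 and Tif-IA were higher at an unadjusted p under 0.05. The members' median difference, rib1/ribP7 minus wild type, was −0.36 log2 units, or 1.28-fold, against −0.07 over all tested probe sets. The differences ran between −0.93 for Rrp4 and 0.55 for Nopp140.

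In 17 of the 34 members every rib1/ribP7 array lay below every wild-type array, and in 2 every one lay above. Over all probe sets 21.1% did not overlap in the lower direction, 14.2% in the higher one and 35.3% in either. With the fold limit of 1.5 and the unadjusted 0.05 level that the submitters used, 7 members were lower and 0 higher, against 4.97% and 8.01% of all probe sets with limma's p. Under the scaling on hybridization controls the median over all probe sets moved to 0.31 and that over the members to 0.02, with 2 members lower (Nop60B and wcd) and Nopp140 higher by limma's adjusted test. That scaling shifts all probe sets of an array by the same amount. The members' median relative to that of all probe sets, −0.29, therefore could not change and is no separate result.

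With the replicate number of the labels as a block, 11 members fell by limma's test and 1 rose, against 5.63% and 9.0% of all probe sets, or 14.6% in either direction. The block added bys, mbm and Rrp42 as lower and Nopp140 as higher, and Dis3 lost its call. Single arrays moved the count of members that fell. Leaving out rib1/ribP7 replicate 1 gave 4, replicate 2 gave 2 and replicate 3 gave 3. Among wild-type arrays, omitting the first gave 14, the second 2 and the third 5. Over all probe sets the count of falls moved as well. It was 1663, 294 and 685 without wild-type replicate 1, 2 and 3, against 624 in the full fit. The range over all 6 fits is given below. Among the members, Nop60B alone fell in each of these 6 fits.

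**Figure D1:**
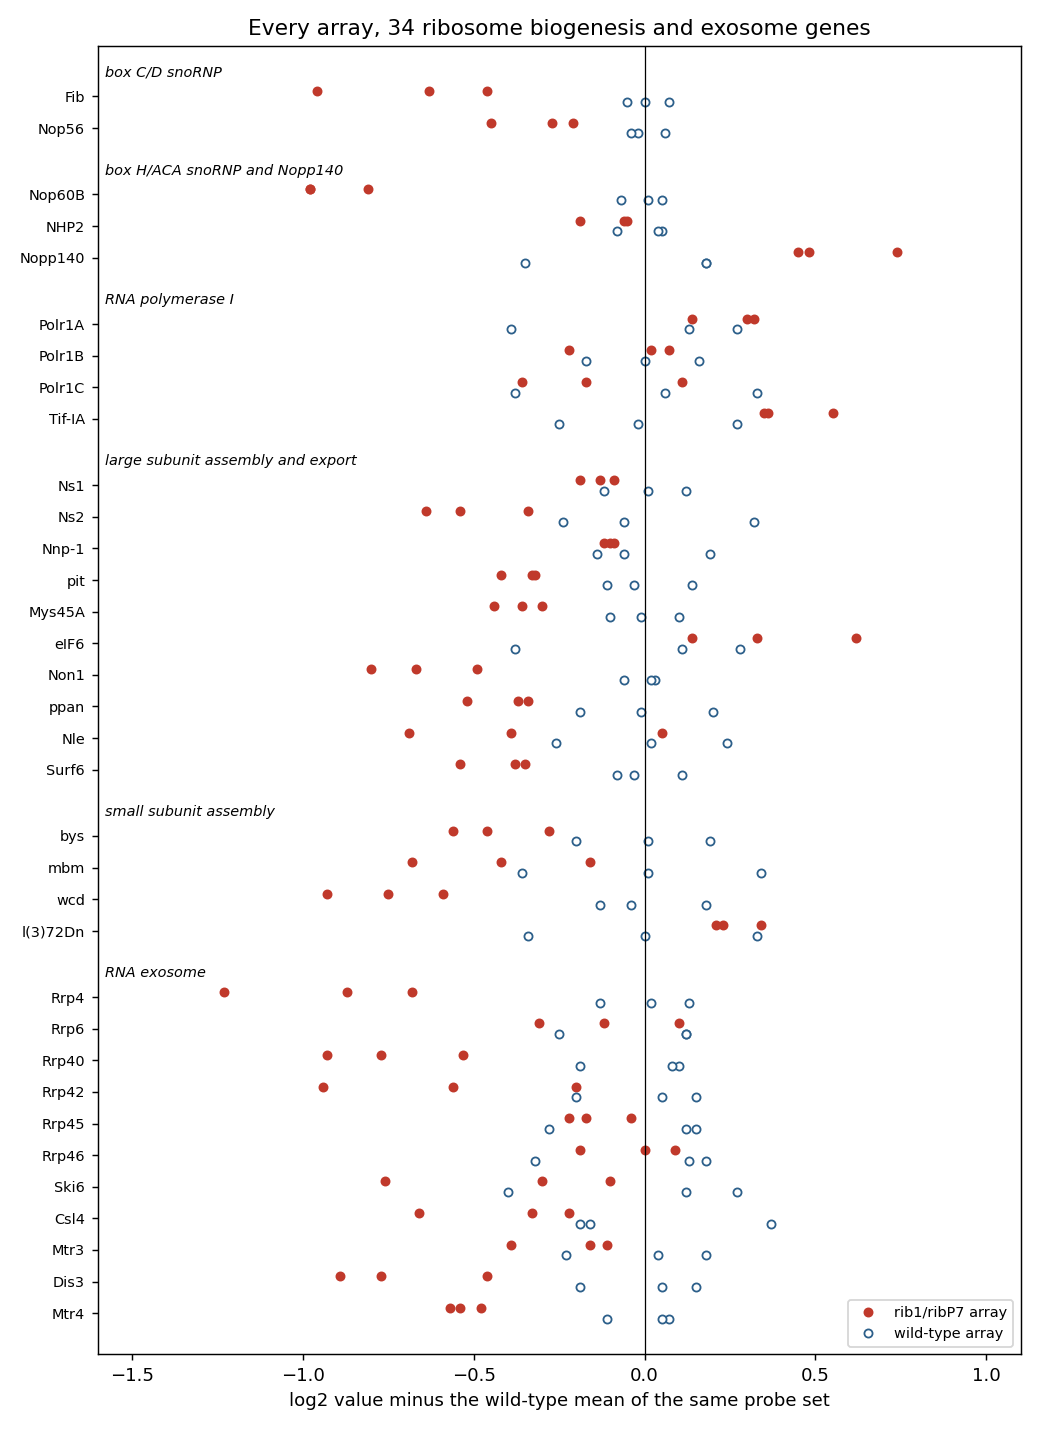
Each point is 1 array, plotted as its log2 value minus the wild-type mean of that probe set, for the 34 measured genes grouped by role; filled red points are the 3 rib1/ribP7 arrays and open blue points below them the 3 wild-type arrays. In 17 genes all red points lie left of all blue ones, and in Nopp140 and Tif-IA all lie right of them.

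Of the 3 measured genes for the snoRNPs that guide pseudouridylation (box H/ACA) and their escort, 1 fell and none rose by limma's adjusted test, with 1 lower and 1 higher at an unadjusted p under 0.05. Over all probe sets 3.32% fell and 5.54% rose in the adjusted test. At the unadjusted level 12.9% were lower, and the share that was higher was not computed. Nop60B, also called minifly, encodes the pseudouridine synthase of the box H/ACA particles and hosts snoRNAs in its introns. Its brighter probe set read 11.82, 11.65 and 11.65 log2 units in rib1/ribP7 embryos, against 12.56, 12.68 and 12.64 in wild-type embryos. Every mutant array lay well below every wild-type array, and each group was tight. Nop60B fell by 0.92 (SE 0.09, limma adjusted p = 0.00247), to 53.0% of the wild-type level. A second, dimmer probe set of Nop60B read 9.71, 9.60 and 9.60 in rib1/ribP7 embryos, against 11.41, 11.50 and 11.60 in wild-type embryos. There the fall was 3.64-fold (log2 difference −1.87, SE 0.08, limma adjusted p = 0.000225), so the probe sets shared a direction and not a size.

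NHP2, another core protein of the same particles, differed by −0.10 (95% interval −0.30 to 0.10, limma adjusted p = 0.465), and its groups overlapped. Nopp140, a nucleolar phosphoprotein that escorts snoRNPs, read 11.86, 12.15 and 11.89 in rib1/ribP7 embryos, against 11.06, 11.59 and 11.59 in wild-type embryos. The groups did not overlap, and wild-type replicate 1 stood lowest. The difference was 0.55 (SE 0.17), with limma adjusted p = 0.109, and 0.0488 with the replicate block.

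Among the box C/D snoRNPs, which guide ribose methylation, Fib encodes the methyltransferase fibrillarin. Fib read 12.01, 11.51 and 11.84 in rib1/ribP7 embryos, against 12.54, 12.42 and 12.47 in wild-type embryos. All mutant arrays were lower, and they were more spread than the wild-type ones. Fib fell by 0.69 (SE 0.14, limma adjusted p = 0.0356). Of the 6 fits that left out 1 array, the Fib call held only without wild-type replicate 1, and the limma adjusted p reached 0.116 in the others. Nop56, a scaffold protein of the same particles, read 12.57, 12.33 and 12.51 in rib1/ribP7 embryos, against 12.76, 12.74 and 12.84 in wild-type embryos. Its groups also did not overlap, with a difference of −0.31 (SE 0.09, limma adjusted p = 0.0991).

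No measured gene of RNA polymerase I passed the limma test, and none had an unadjusted p under 0.05 except Tif-IA. Tif-IA, an initiation factor that ties polymerase I activity to growth, read 11.23, 11.03 and 11.04 in rib1/ribP7 embryos, against 10.95, 10.66 and 10.43 in wild-type embryos. The groups were separate with the mutants on top, and the difference was 0.42 (95% interval 0.06 to 0.78, limma adjusted p = 0.142). Polr1A, the largest subunit of the enzyme, read 9.69, 9.71 and 9.53 in rib1/ribP7 embryos, against 9.52, 9.66 and 9.00 in wild-type embryos. Its groups overlapped, wild-type replicate 3 being far below the rest, and the difference was 0.25 (95% interval −0.19 to 0.69). The second-largest subunit gene Polr1B differed by −0.04 (95% interval −0.34 to 0.26). Polr1C, whose product is shared with RNA polymerase III, differed by −0.14 (95% interval −0.65 to 0.37). Changes within these intervals are not excluded by 3 arrays a group.

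Of 10 measured genes for large subunit assembly and export, 2 fell and none rose by limma's adjusted test, with 6 lower and 0 higher at an unadjusted p under 0.05, a level at which 12.9% of all probe sets were lower. Non1, a nucleolar GTPase, read 11.34, 11.47 and 11.65 in rib1/ribP7 embryos, against 12.08, 12.17 and 12.16 in wild-type embryos. The gap between the groups exceeded the spread within either, and Non1 fell by 0.65 (SE 0.10, limma adjusted p = 0.0143). Its limma adjusted p rose to at most 0.0766 when 1 array was left out, and the call was lost without wild-type replicate 2 or rib1/ribP7 replicate 1 or 2. Surf6, a nucleolar protein that binds precursor RNA, read 10.06, 10.22 and 10.25 in rib1/ribP7 embryos, against 10.52, 10.57 and 10.71 in wild-type embryos. Surf6 fell by 0.42 (SE 0.09, limma adjusted p = 0.0444), with groups that did not overlap. That call lay close to the threshold: it held only without wild-type replicate 1 among the 6 fits with 1 array left out (limma adjusted p up to 0.164), and was lost with a trended, robust prior (0.108) and without the dimmest 40% of probe sets (0.0585).

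The other genes of this group stayed outside the adjusted threshold. The largest of these differences was that of Ns2, a GTPase of large subunit maturation, at −0.51 (limma adjusted p = 0.119). The helicase gene pit, known in flies as pitchoune and as a Myc target, differed by −0.36 (limma adjusted p = 0.0682) and Mys45A by −0.36 (limma adjusted p = 0.0581). For ppan, known in flies as Peter pan and needed for larval growth, the difference was −0.41 (limma adjusted p = 0.0979). Groups did not overlap in any of these 4. The probe set read for pit, like that for Ns1, is of a kind that can match more than 1 transcript. Nle, known as Notchless, differed by −0.34, and its arrays ran over 8.47 to 9.21 in the mutants and 8.90 to 9.40 in wild type, so the groups overlapped. Ns1, the fly nucleostemin, and Nnp-1 differed by −0.13 and −0.10. The one positive value in the group belonged to eIF6, which keeps a new large subunit from joining too early, at 0.36 (95% interval −0.14 to 0.86, limma adjusted p = 0.317).

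For small subunit assembly 4 genes were measured, of which 1, wcd, fell by limma's adjusted test, against 3.32% of all probe sets. The gene wcd encodes a component of the U3 snoRNP, described in flies under the name Wicked. It read 9.03, 9.21 and 9.37 in rib1/ribP7 embryos, against 9.83, 9.92 and 10.14 in wild-type embryos. The groups were well apart, and wcd fell by 0.76 (SE 0.13, limma adjusted p = 0.0187), to 59.0% of wild type. The call was lost without wild-type replicate 2 or rib1/ribP7 replicate 1 or 2 (limma adjusted p up to 0.0867).

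The bystin gene bys read 9.79, 9.89 and 10.07 in rib1/ribP7 embryos, against 10.15, 10.36 and 10.54 in wild-type embryos. In both groups the value differed with the replicate number in the same way, lowest in replicate 1 and highest in replicate 3. Accordingly the difference of −0.43 had a limma adjusted p of 0.0991, and of 0.0342 with the replicate block. The gene mbm, whose fly product is a nucleolar protein needed for neuroblast growth, showed the same arrangement, with 9.54, 9.80 and 10.06 in rib1/ribP7 embryos, against 9.86, 10.23 and 10.56 in wild-type embryos. Its groups overlapped, although each mutant array was below the wild-type array of its number. The difference was −0.42, with limma adjusted p = 0.275 and 0.0411 with the replicate block. For l(3)72Dn, listed with the synonym UTP4 in the RefSeq table, the difference was 0.27 (95% interval −0.16 to 0.69).

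**Figure D2:**
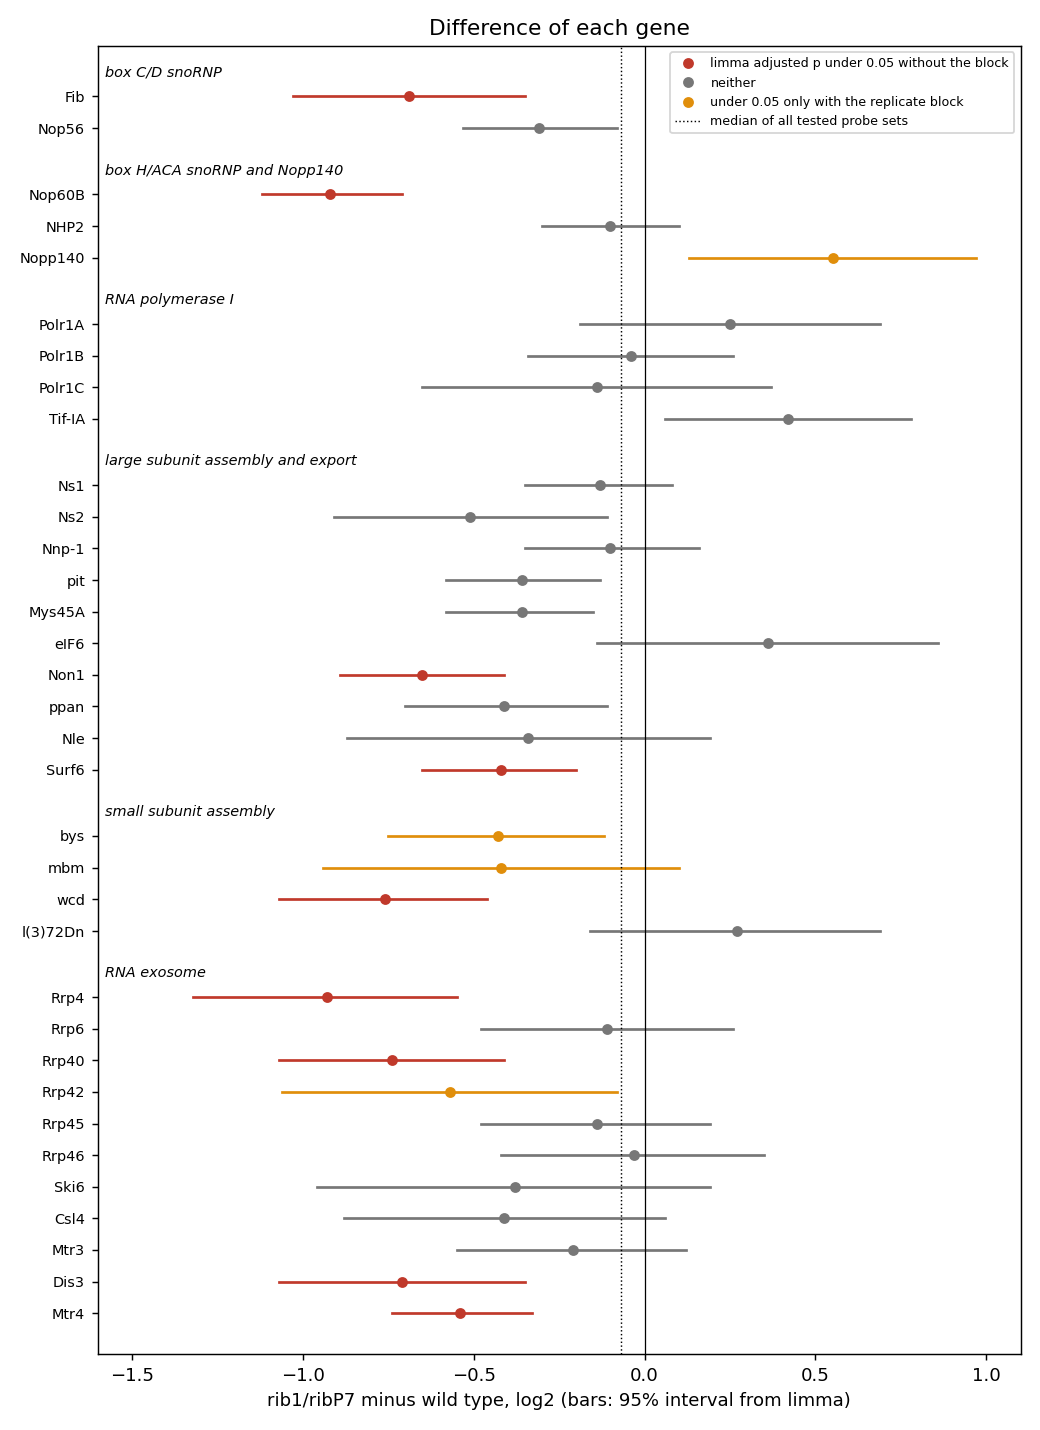
Points give the difference of each gene, rib1/ribP7 minus wild type, in log2 units with its 95% interval from limma, grouped by role; red marks genes past the adjusted threshold, orange those past it only with the replicate block, and the dotted line the median of all tested probe sets at −0.07. The falls lie between −0.42 for Surf6 and −0.93 for Rrp4, and Nopp140 has the largest positive value at 0.55.

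All 11 exosome genes were measured and all had a lower mean in rib1/ribP7 embryos, against 64.1% of all tested probe sets. However, 4 of the 11, Rrp6, Rrp45, Rrp46 and Mtr3, were above 0 when arrays were scaled on hybridization controls. By limma's adjusted test 4 fell and none rose, with 5 lower and 0 higher at an unadjusted p under 0.05 (12.9% of all probe sets were lower at that level), and the median difference was −0.41. The called genes belong to the cap, the nucleases and the helicase.

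The cap of the exosome binds RNA entering the barrel. Rrp4, a cap subunit, read 8.87, 8.32 and 8.68 in rib1/ribP7 embryos, against 9.57, 9.42 and 9.68 in wild-type embryos. Rrp4 fell by 0.93 (SE 0.16, limma adjusted p = 0.0205), to 52.4% of wild type. Rrp40, its partner in the cap, read 8.92, 8.52 and 8.68 in rib1/ribP7 embryos, against 9.55, 9.26 and 9.53 in wild-type embryos. Both genes had groups that did not overlap and the lowest value of each group in replicate 2. Rrp40 fell by 0.74 (SE 0.14, limma adjusted p = 0.0257). The Rrp4 call was lost without wild-type replicate 2 or rib1/ribP7 replicate 3 (limma adjusted p up to 0.0799), and the Rrp40 call without wild-type replicate 3 or rib1/ribP7 replicate 2 or 3 (up to 0.107). Csl4, the remaining cap subunit, differed by −0.41 (95% interval −0.88 to 0.06, limma adjusted p = 0.244), with groups that did not overlap.

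The barrel is formed by proteins related to the bacterial nuclease RNase PH, which in yeast and humans have lost that activity. Of the 5 measured here, Rrp42, Rrp45, Rrp46, Ski6 and Mtr3, none passed the limma test without the block, and 1, Rrp42, had an unadjusted p under 0.05. Rrp42 read 8.74, 8.00 and 8.38 in rib1/ribP7 embryos, against 9.09, 8.74 and 8.99 in wild-type embryos. The highest mutant array lay only just below the lowest wild-type one, while within each replicate number the mutant was lower by 0.35 or more. The Rrp42 difference of −0.57 thus had a limma adjusted p of 0.146, and of 0.0349 with the replicate block. Ski6, the fly Rrp41, differed by −0.38 (95% interval −0.96 to 0.19) and Mtr3 by −0.21 (95% interval −0.55 to 0.12). Rrp45 and Rrp46 differed by −0.14 and −0.03, with 95% intervals of −0.48 to 0.19 and −0.42 to 0.35. The interval of Rrp46 does not meet that of Rrp4, −1.32 to −0.55, although a difference between these genes was not tested.

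Of the exosome's nucleases, Dis3, the catalytic subunit, read 7.01, 6.58 and 6.70 in rib1/ribP7 embryos, against 7.28, 7.52 and 7.62 in wild-type embryos. Dis3 fell by 0.71 (SE 0.15, limma adjusted p = 0.0390), but the adjusted p was 0.0541 with the replicate block and 0.0531 with a trended, robust prior. The pair with number 1 differed by only −0.26, against −0.94 and −0.92 for the other pairs. Without rib1/ribP7 replicate 2 or 3, or wild-type replicate 2 or 3, the Dis3 call was lost (limma adjusted p up to 0.146). The nuclear exonuclease gene Rrp6 differed by −0.11 (95% interval −0.48 to 0.26, limma adjusted p = 0.663), and its groups overlapped. Mtr4, the helicase that feeds RNA to the nuclear exosome, read 9.43, 9.34 and 9.37 in rib1/ribP7 embryos, against 9.80, 9.98 and 9.96 in wild-type embryos. These groups were tight and apart, and Mtr4 fell by 0.54 (SE 0.08, limma adjusted p = 0.0154). Its call was lost with a trended, robust prior (limma adjusted p = 0.0632) and without wild-type replicate 2 or any 1 mutant array (up to 0.0843).

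**Figure D3:**
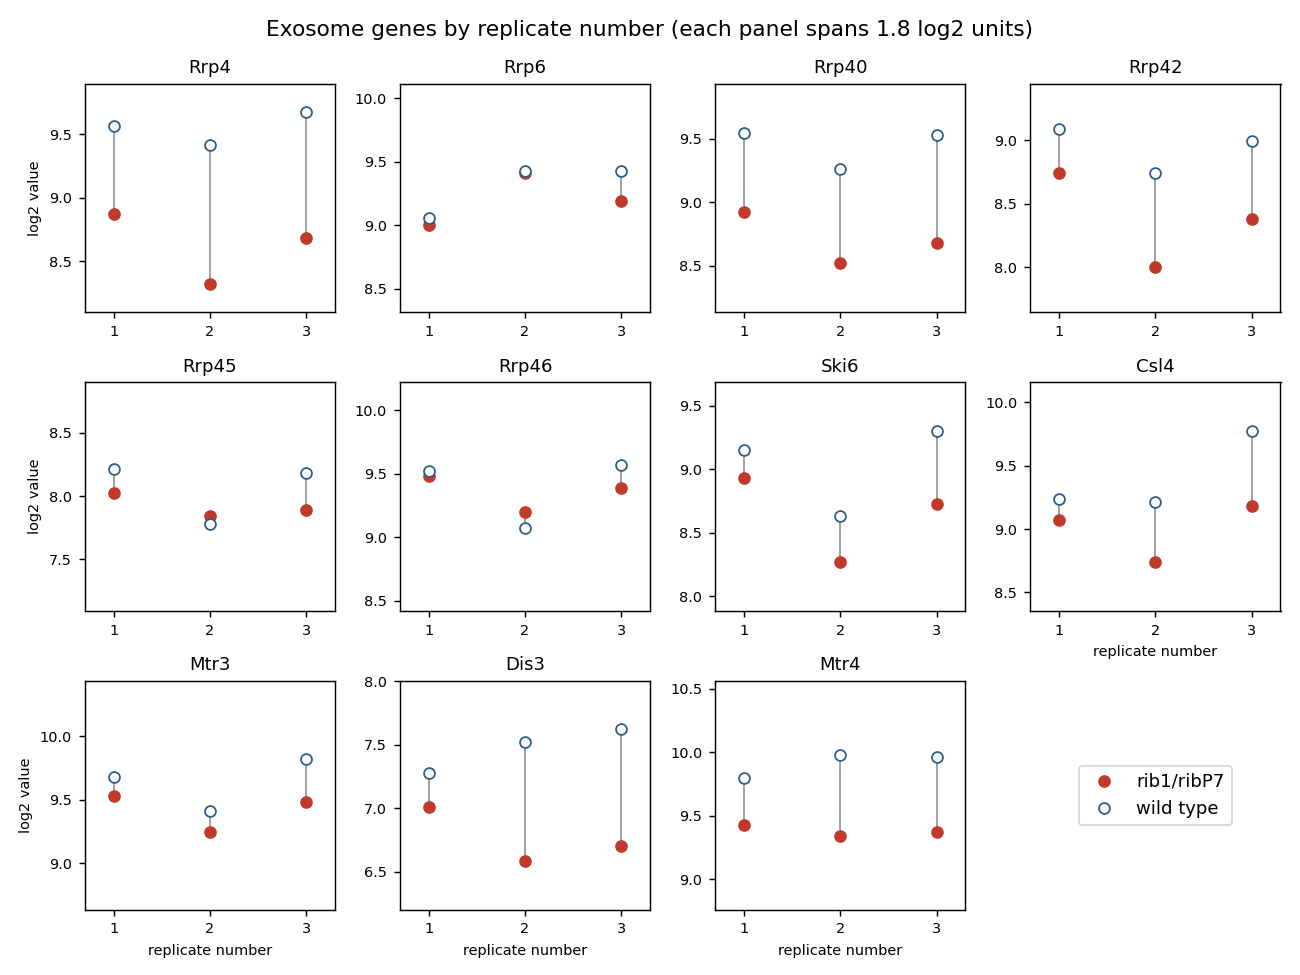
Each panel shows 1 exosome gene, with log2 value on the vertical axis and replicate number on the horizontal axis; filled red points are rib1/ribP7 arrays, open blue points wild-type arrays, and grey lines join arrays of the same number. Replicate 2 is lowest in both groups for Rrp4, Rrp40, Csl4, Rrp42, Rrp45, Rrp46, Ski6 and Mtr3, and not for Rrp6, Dis3 and Mtr4.

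In 8 of the 11 exosome genes replicate 2 was the lowest of the 3 mutant arrays and also the lowest of the 3 wild-type arrays. These 8 were the cap and barrel genes, and Rrp6, Dis3 and Mtr4 lacked the pattern. That split of the exosome was not planned beforehand, so the count is a description. Over all tested probe sets 13.5% had that arrangement. Outside the exosome it occurred in 8 of the 23 measured members, namely Fib, Nop56, NHP2, Polr1C, Ns1, eIF6, Nle and l(3)72Dn. The genes wcd, bys and mbm instead had replicate 1 lowest and replicate 3 highest in both groups. What arrays of the same number share is not given in the labels.

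The SD was larger in wild type for 22 of 34 members (64.7%), against 80.8% of all probe sets, which is given as a description.

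Other ribosome biogenesis genes, listed by function and without the members, were also mostly lower, though 15 of 52 were below 0, with a median of 0.15, when arrays were scaled on hybridization controls. Of 68 listed genes 52 were measured, and 7 fell and 1 rose by limma's adjusted test (12 and 2 with the replicate block). Over all probe sets 3.32% fell and 5.54% rose in that test, and 5.63% and 9.0% with the block. The list's median difference was −0.23, and 47 of 52 genes lay below 0, against 64.1% of all probe sets. CG3071 read 9.53, 9.22 and 9.52 in rib1/ribP7 embryos, against 10.16, 10.41 and 10.82 in wild-type embryos, a fall of 1.04 (SE 0.19, limma adjusted p = 0.0238). CG11837, which the RefSeq table also calls Dim1, the name of a ribosomal RNA dimethylase, read 8.07, 7.96 and 8.10 in rib1/ribP7 embryos, against 8.75, 8.88 and 9.11 in wild-type embryos, a fall of 0.87 (SE 0.11, limma adjusted p = 0.00791). In neither gene did the groups overlap.

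CG7137 and RpL24-like, an assembly factor related to a ribosomal protein, fell by 0.82 (SE 0.17) and 0.63 (SE 0.13), with limma adjusted p-values of 0.0414 and 0.0405. The other 3 falls were of −0.62 in Gar1, −0.36 in CG4364 and −0.46 in CG12050. Gar1 is a core protein of the box H/ACA particles, as is Nop10, which differed by −0.35 (limma adjusted p = 0.0761), and both were singled out after their values were seen. Gar1 read 11.59, 11.51 and 11.55 in rib1/ribP7 embryos, against 12.20, 12.11 and 12.20 in wild-type embryos. Of the H/ACA core genes, Nop60B and Gar1 thus fell, and NHP2 and Nop10 did not pass the test. The one rise was in CG33158, at 8.17, 8.03 and 7.94 in rib1/ribP7 embryos, against 7.01, 7.24 and 6.94 in wild-type embryos, a rise of 0.98 (SE 0.11, limma adjusted p = 0.00528). CG11837, Gar1 and CG33158 kept their calls in each fit that left out 1 array. The calls of CG3071, CG7137 and CG12050 were lost without wild-type replicate 2 or any 1 mutant array (limma adjusted p up to 0.102, 0.159 and 0.104), and those of RpL24-like and CG4364 also without wild-type replicate 3 (up to 0.110 and 0.172).

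Exosome cofactors and other RNA decay genes held 21 measured genes of 29 listed, of which 1 fell and 1 rose by limma's adjusted test, and 1 fell and 2 rose with the replicate block, which added Nbr (difference 0.51, limma adjusted p = 0.0708, and 0.0213 with the block). Over all probe sets 3.32% fell and 5.54% rose in that test, and 5.63% and 9.0% with the block. The list's median difference was 0.07, and 0.45 after scaling on hybridization controls, where 1 of the 21 genes lay below 0. The gene pelo, needed to rescue stalled ribosomes, read 8.90, 8.70 and 8.68 in rib1/ribP7 embryos, against 9.73, 9.78 and 9.82 in wild-type embryos. It fell by 1.01 (SE 0.09, limma adjusted p = 0.00198). Rat1, a nuclear exonuclease that digests RNA from the end opposite to the exosome, read 9.13, 9.27 and 9.06 in rib1/ribP7 embryos, against 8.48, 8.48 and 8.61 in wild-type embryos. Both genes had groups that did not overlap, in opposite directions. Rat1 rose by 0.63 (SE 0.09, limma adjusted p = 0.0113), a call that was lost without rib1/ribP7 replicate 1 or 2 (up to 0.0601).

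Some lists of markers of other cell types and of embryo age also differed in median between the groups. For muscle markers, wild-type replicate 1 lay among the mutant arrays, and the wild-type arrays differed widely from each other. Over all tested probe sets, the SD of the difference between wild-type replicates 1 and 3 was 0.629. Between wild-type replicate 1 and the mutant arrays it was 0.550, 0.604 and 0.545, and between mutant arrays 0.21 to 0.22. The other wild-type pairs had SDs of 0.431 and 0.402. After subtraction of each probe set's 6-array mean, list medians were −0.07, −0.24 and −0.11 for the members in rib1/ribP7 embryos and 0.14, 0.13 and 0.30 in wild-type embryos. The list named germline and maternal markers (8 of 10 measured) stood at −1.17, −0.08 and −0.43 in rib1/ribP7 embryos and 0.11, 0.86 and 1.00 in wild-type embryos. Of this list 4 genes fell, SNCF (−3.50), halo (−3.31), osk (−2.50) and nanos. The others, slam (−0.73), vas (−0.33), gcl (0.08) and bcd (0.2), did not pass, though slam fell with the replicate block. The list's name does not cover SNCF, halo and slam, which are known as early zygotic genes of the cellularisation stage. The list's median is therefore not one of germline or maternal transcripts alone. Whether transcripts of the other genes were of maternal or zygotic origin was not tested. Neuron markers (10 of 12) stood at 0.57, 0.78 and 0.13 in rib1/ribP7 embryos and −0.19, −0.38 and −0.88 in wild-type embryos. Of them 5 rose, Rab3 (3.4), ChAT (2.09), Gad1 (2.06), cac (1.29) and nSyb (1.16). The remaining genes, elav (0.99), brp (0.34), ple (−0.06), VGlut (−0.15) and para (−0.18), did not pass, though elav rose with the replicate block. Muscle markers (8 of 12) stood at 0.76, 0.76 and 0.54 in rib1/ribP7 embryos and 0.71, −0.85 and −1.88 in wild-type embryos, and 3 rose, Zasp66 (3.62), Act87E (1.92) and Obsc (0.78). These falls and rises are by limma's adjusted test, in which 3.32% of all probe sets fell and 5.54% rose. In fits with 1 array left out, osk, nanos, Rab3, ChAT, cac and nSyb lost their calls at least once. The neuron and muscle lists had higher medians in rib1/ribP7 embryos (differences of 1.08 and 1.28), and the germline and maternal list a lower one (−1.15). The medians of the cycling and neuroblast list and of the gut and salivary gland list were −0.11 and −0.08, and differences between lists were not tested.

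Among cycling and neuroblast markers, with 13 of 18 measured, PCNA, the DNA replication clamp, read 11.05, 10.79 and 10.92 in rib1/ribP7 embryos, against 11.52, 11.74 and 12.33 in wild-type embryos. PCNA fell by 0.94 (SE 0.21, limma adjusted p = 0.0486), and no other gene of this list passed. The PCNA call was lost without wild-type replicate 2 or any 1 mutant array (limma adjusted p up to 0.180). Of the 13 genes 9 lay below 0, against 64.1% of all probe sets. The 4 above 0 were pros (0.62), insc (0.37), dpn (0.34) and CycE (0.13). Gut and salivary gland markers, with 7 of 8 measured, held 1 rise, Jon65Aiv (3.77), and 1 fall, Jon44E (−5.04). The summed level of the germline and maternal list, over values taken back to the linear scale, was 1815 to 2574 in rib1/ribP7 arrays and 2702 to 4372 in wild-type arrays. That of the neuron list was 3155 to 5011 and 1084 to 2506, that of the muscle list 9409 to 9834 and 2147 to 8041, that of the cycling and neuroblast list 20939 to 22563 and 19795 to 30248, and that of the gut and salivary gland list 2444 to 2783 and 2706 to 3529, each for rib1/ribP7 arrays and then wild-type arrays. RMA gives no value of 0, so no marker is listed at 0. The part of these differences in the results on the members was not tested.

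**Figure D4:**
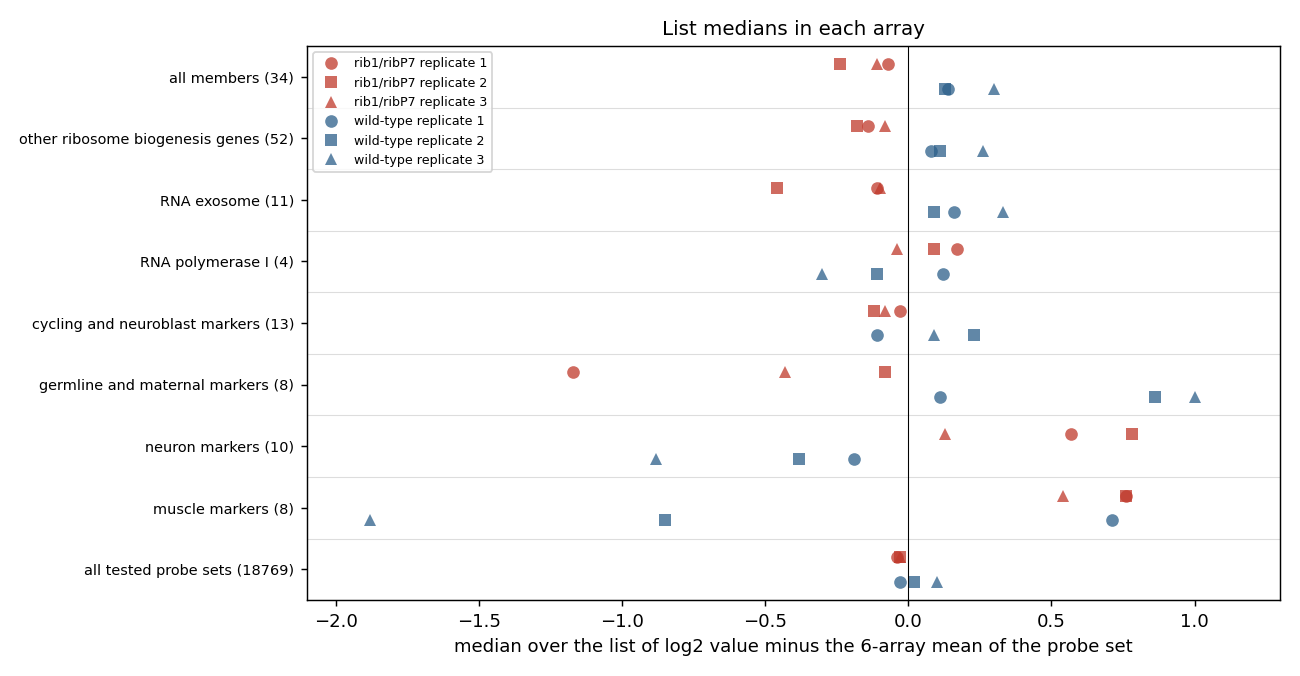
Each symbol is the median, over the genes of a list, of the log2 value minus that probe set's mean over all 6 arrays, for 1 array; red symbols above are rib1/ribP7 arrays, blue symbols below wild-type arrays, the shape gives the replicate, and the number of genes stands in brackets. The members lie at −0.24 to −0.07 in the mutants and 0.13 to 0.30 in wild type, and wild-type replicate 3 reaches −1.88 for muscle markers.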

How the data were processed

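The authors deposited log2 values for each probe set. RMA and Partek are named in the submitters' processing notes, which state no versions. The table held 18952 probe sets, including 183 controls that were not tested. Genes were named from the platform annotation, in which 402 tested probe sets had several symbols and 4720 are unnamed here, and 38 of the 39 members were found in a RefSeq gene table (assembly Release 6 plus ISO1 MT). Differences between rib1/ribP7 and wild type were tested two-sided with limma 3.58.1 (lmFit, then eBayes; R 4.3.3), and p-values were adjusted by Benjamini-Hochberg across the 18769 probe sets. SEs and 95% intervals are limma's moderated ones. An exact permutation test was not used, as with 3 arrays a group its smallest two-sided p is 0.1. The number of arrays limits the precision, and no detection calls were used.

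Members and lists were chosen with earlier results of these data known. From the other lists 20 names of uncertain or other main role were left out. Array values are given for each member that passed and, where none or 1 of a role group passed, for the 2 members with the smallest p. Of the other lists, up to 4 called genes each way by size are named, or the 2 with the smallest p. Further genes, among them those called only with the block, were chosen after their values were seen.

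Replicate numbers come from the titles. Over probe sets, the deviations of same-numbered arrays from their group's mean had correlations of 0.37, 0.57 and 0.39. Those of other pairs lay between −0.33 and −0.14. Deviations cancel within a group, so the positive values make the others negative on balance, and these are no separate evidence. As the labels state no pairing, the main fit was unpaired, and a fit with the number as a block was run beside it. Alternatives also included a trended and robust prior, array weights, median centring, scaling on hybridization controls, cyclic loess, a filter on the dimmest 40%, the mean of all probe sets of a gene, and omission of 1 array at a time. The limma step was tested on simulated data.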

Additional observations from a re-analysis of the deposited data

How the results depend on the processing

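Against 9 falls among the members, the count was 6 with the trended and robust prior, where Surf6, Dis3 and Mtr4 lost their calls, 9 with median centring and with the mean of all probe sets, 11 with cyclic loess, 8 with the filter on dim probe sets and 7 by the submitters' rule. The members' median, −0.36, lay between −0.36 and −0.34 in those of these fits that give one, which the submitters' rule does not. Over all probe sets the falls numbered 725 with the prior, 565 with median centring and 615 with cyclic loess, against 624 in the main fit. Among the probe sets kept by the filter they numbered 579. The replicate block gave 11 falls and 1 rise among members, and 1689 higher and 1056 lower probe sets in all, against 1040 and 624 without it. Apart from the calls named above for bys, mbm, Rrp42, Nopp140 and Dis3, the block changed no other call of a member. Array weights gave 14 falls and 3 rises among members, 2243 higher and 2128 lower probe sets, and a member median of −0.25. They turned Polr1C to 0.13, Rrp45 to 0.05 and Rrp46 to 0.20. Scaling on hybridization controls gave 2 falls and 1 rise among members, 2917 higher and 285 lower probe sets, and a member median of 0.02. It turned Nop56 to 0.07, NHP2 to 0.28, Polr1B to 0.34, Polr1C to 0.24, Ns1 to 0.25, Nnp-1 to 0.28, pit to 0.02, Mys45A to 0.02, Nle to 0.04, Rrp6 to 0.27, Rrp45 to 0.24, Rrp46 to 0.35 and Mtr3 to 0.17, as that scaling raises every mutant array against wild type. The cause of the other changes was not tested.

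With 1 array left out, falls among members ranged between 2 and 14 and rises between 0 and 1, higher probe sets between 422 and 2011, lower ones between 166 and 1663, and the member median between −0.39 and −0.26. The differences of Polr1B, Polr1C, Rrp46 and Nnp-1 ranged over −0.12 to 0.05, −0.33 to 0.03, −0.19 to 0.06 and −0.17 to 0.00. Of the 204 such values for single members, 162 kept direction and side of the threshold, 29 lost their call, 6 gained one and 7 turned.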

Other observations

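Regulators of growth that act upstream of ribosome production were measured in 13 of 17 listed cases, and none passed limma's adjusted test, with 3 higher and 0 lower at an unadjusted p under 0.05 (2 rose and 0 fell with the replicate block, Mnt and Akt). Over all probe sets 5.54% rose and 3.32% fell in the adjusted test, and 9.0% and 5.63% with the block. At the unadjusted level 12.9% were lower, and the share that was higher was not computed. The median difference of these regulators was 0.11 log2 units, and 0.49 after scaling on hybridization controls. The forkhead factor gene foxo, which restrains growth when insulin signalling is low, read 7.29, 7.81 and 7.42 in rib1/ribP7 embryos, against 7.07, 7.16 and 6.62 in wild-type embryos, a difference of 0.56 (SE 0.19, limma adjusted p = 0.142). Akt, a kinase of the insulin pathway, read 9.64, 10.05 and 9.50 in rib1/ribP7 embryos, against 9.36, 9.37 and 8.89 in wild-type embryos, a difference of 0.52 (SE 0.20, limma adjusted p = 0.165, and 0.0451 with the replicate block). Neither gene's groups overlapped, the mutants being higher. Mnt, a repressor that competes with Myc for its partner Max, differed by 1.08 (SE 0.44, limma adjusted p = 0.193, and 0.0268 with the replicate block), and Max by −0.14 (95% interval −0.38 to 0.10). Myc itself was not analysed here.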
